A study of Mus musculus with 8 samples.

Results

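The chemoattractant receptor genes followed here in sorted myeloid cells of sanroque mice were Fpr1, Fpr2, C5ar1, C5ar2, C3ar1, Ltb4r1 and Ptafr. They were chosen by symbol, as the formyl peptide receptors, the receptors for complement fragments and the receptors for lipid attractants. The rule used no measured value, but earlier results of these data were known when the genes were chosen. The 7 symbols each matched 1 row among the 54188 genes of the count table, and all 7 were among the 17650 genes tested. Homozygous Roquin san/san mice on a C57BL/6 background, about 20 weeks of age and labelled female, gave all the cells, so that every group carried the san allele of the RNA-binding protein Roquin and no WT cells were compared here. CD11b+ cells were sorted by their staining for Gr-1 into Gr-1hi cells, which the labels call G-MDSCs, and Gr-1lo cells, which the labels call M-MDSCs, from spleen (SP) and from bone marrow (BM). Each of the 4 groups (SP Gr-1hi, SP Gr-1lo, BM Gr-1hi and BM Gr-1lo) held 2 libraries of poly(A)-selected, strand-specific RNA-seq. They are called here by the number in their label, 5 and 6 for SP Gr-1hi, 7 and 8 for SP Gr-1lo, 9 and 10 for BM Gr-1hi, and 11 and 12 for BM Gr-1lo. The Gr-1 antibody recognises the products of Ly6g and of Ly6c genes, so the subset comparison sets cells against each other that were sorted on those proteins.

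All 7 genes encode receptors with 7 membrane-spanning helices, by which neutrophils and monocytes sense damage and infection and move toward it. FPR1 and FPR2 bind N-formylated peptides released by bacteria and mitochondria, and FPR2 also binds lipids and proteins such as annexin A1 and serum amyloid A. C5AR1 is the signalling receptor for the complement fragment C5a, C5AR2 binds the same fragment without the usual coupling to G proteins, and C3AR1 binds C3a. LTB4R1 (BLT1) is the high-affinity receptor for leukotriene B4, and PTAFR is the receptor for platelet-activating factor (PAF). Apart from C5AR2, they signal largely through G proteins, phospholipase C beta and PI3K gamma, and arrestins and receptor kinases switch them off.

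The libraries held 33453580 to 68316154 counts, so that 3 counts came to 0.0347 to 0.124 CPM, the unit in which counts are set to a common library size, here with TMM scaling factors. Ly6g, which encodes the Ly6G part of the Gr-1 epitope, was at 330 to 801 CPM in the 4 Gr-1hi libraries and at 3.07 to 8.22 CPM in the 4 Gr-1lo libraries, and Itgam, which encodes CD11b, was at 734 CPM or more in all 8. Summed over 10 monocyte markers, led by Ly6c2, Fn1 and Ccr2, the Gr-1lo libraries held 7043 to 10336 CPM and the Gr-1hi libraries 1083 to 1765 CPM. The label for sex did not hold for most libraries. Xist was at 362 CPM in library 5 and at 209 CPM in library 7 and at 0.102 CPM or less in the other 6, and the Y-linked Ddx3y was at 0 in library 5 and at 33.6 to 82.6 CPM in the other 7. Library 7 therefore held both transcripts. Results are given with and without libraries 5 and 7, a fit in which both SP groups keep a lone library that is assumed to vary like the other groups.

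The genes for the formyl peptide receptors and for the C5a receptors lie as neighbours. In GRCm38, Fpr1 (ENSMUSG00000045551, chr17:17876471-17883940, minus strand) and Fpr2 (ENSMUSG00000052270, chr17:17887824-17893952, plus strand) point away from each other across 3.883 kb. C5ar1 (ENSMUSG00000049130, chr7:16246743-16259540) and C5ar2 (ENSMUSG00000074361, chr7:16234585-16244154) lie on the minus strand, 2.588 kb apart. C3ar1 (ENSMUSG00000040552) is at chr6:122847138-122856161 on the minus strand, Ltb4r1 (ENSMUSG00000046908) at chr14:55765962-55768494 on the plus strand, and Ptafr (ENSMUSG00000056529) at chr4:132564067-132582683 on the plus strand. Each is annotated as a protein-coding gene.

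The 250 bases before the RefSeq start (GRCm38.p6) are printed for both neighbouring pairs, because the ratio of the genes within each pair differed between the groups, as given further on. Capitals mark AGGAAGT, a sequence with the ETS core that PU.1 binds, and TTGCNNAA, a C/EBP-like sequence, searched on both strands. The motifs were chosen with these sequences already in view. The windows are Fpr1 at chr17:17883940-17884189 (minus strand), Fpr2 at chr17:17887574-17887823 (plus strand), C5ar1 at chr7:16259339-16259588 (minus strand) and C5ar2 at chr7:16244155-16244404 (minus strand).
Fpr1: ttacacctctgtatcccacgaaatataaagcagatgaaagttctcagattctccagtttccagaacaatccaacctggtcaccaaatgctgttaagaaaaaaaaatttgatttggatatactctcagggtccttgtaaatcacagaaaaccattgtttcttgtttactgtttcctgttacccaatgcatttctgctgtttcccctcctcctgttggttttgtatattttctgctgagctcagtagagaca
Fpr2: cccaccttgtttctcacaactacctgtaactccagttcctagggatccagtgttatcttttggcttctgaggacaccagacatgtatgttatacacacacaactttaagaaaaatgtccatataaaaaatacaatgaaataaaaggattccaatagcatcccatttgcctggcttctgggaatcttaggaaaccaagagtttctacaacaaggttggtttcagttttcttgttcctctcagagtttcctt
C5ar1: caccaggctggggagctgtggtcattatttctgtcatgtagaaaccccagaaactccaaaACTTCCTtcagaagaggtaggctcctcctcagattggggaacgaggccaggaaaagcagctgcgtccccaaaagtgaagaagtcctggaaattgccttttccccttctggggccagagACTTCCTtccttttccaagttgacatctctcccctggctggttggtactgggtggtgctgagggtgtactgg
C5ar2: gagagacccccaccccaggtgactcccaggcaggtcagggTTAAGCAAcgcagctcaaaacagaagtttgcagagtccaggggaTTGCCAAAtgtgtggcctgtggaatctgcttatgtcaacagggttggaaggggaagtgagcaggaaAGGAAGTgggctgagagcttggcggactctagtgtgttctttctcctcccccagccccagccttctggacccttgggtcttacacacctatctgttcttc
AGGAAGT was read as its reverse complement at -190 to -184 and at -72 to -66 from the start of C5ar1, and on the gene's strand at -100 to -94 from the start of C5ar2. TTGCNNAA occurred at -210 to -203 (reverse strand) and at -166 to -159 of C5ar2. The windows of the other 5 genes held neither sequence. Of 32851 promoter windows of this length, 7.69% held AGGAAGT and 9.56% held TTGCNNAA. RefSeq places the start of C5ar1 202 bases inside the GENCODE gene. It lists 2 starts for C5ar2, and the window printed is that of the start at chr7:16244154. These are matches of letters, and no binding was measured here.

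The counts of Fpr2 are less certain than those of the other 6 genes. Of the 1295 stretches of 31 bases in its exons, 43.0% also occurred in transcripts of other genes, 487 of them in the pseudogene Gm5966. Its first exon shares 48 bases with Fpr3, a formyl peptide receptor gene of the same cluster. Fpr3 counts came to 13.5 to 16.9% of the Fpr2 counts in the 8 libraries, and Gm5966, listed under 2 identifiers with nearly the same counts, came to 4.11 to 5.83% under each. For the other 6 genes, 0 to 6.11% of such stretches were shared.

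Levels of different genes were compared per unit of exon length, in TPM, where every library has the same total. On this scale the 7 genes together came to 3229 and 3104 TPM in the BM Gr-1hi libraries and to 2567 and 2661 TPM in the SP Gr-1hi libraries. The sum was 517 and 529 TPM in SP Gr-1lo and 382 and 335 TPM in BM Gr-1lo. The receptor mRNA was therefore more abundant in Gr-1hi cells, and its make-up differed as well. Fpr2 held 36.2 to 47.1% of the sum in every library. Ltb4r1 held 27.3 to 39.9% of the sum in the Gr-1lo libraries but only 9.92 to 12.2% in the Gr-1hi libraries. Fpr1 did the reverse, with 5.78 to 7.76% in Gr-1lo and 19.1 to 27.6% in Gr-1hi libraries. C3ar1 made up less than 1% of the receptor TPM in all 8 libraries, at most 0.934%. In BM Gr-1lo, Ltb4r1 (136 ± 23.0 TPM, SD, n = 2) and Fpr2 (135 ± 4.34 TPM) were within their spread of each other, whereas in BM Gr-1hi Fpr2 (1411 ± 72.4 TPM) was far above Ltb4r1 (345 ± 14.6 TPM).

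**Figure D1:**
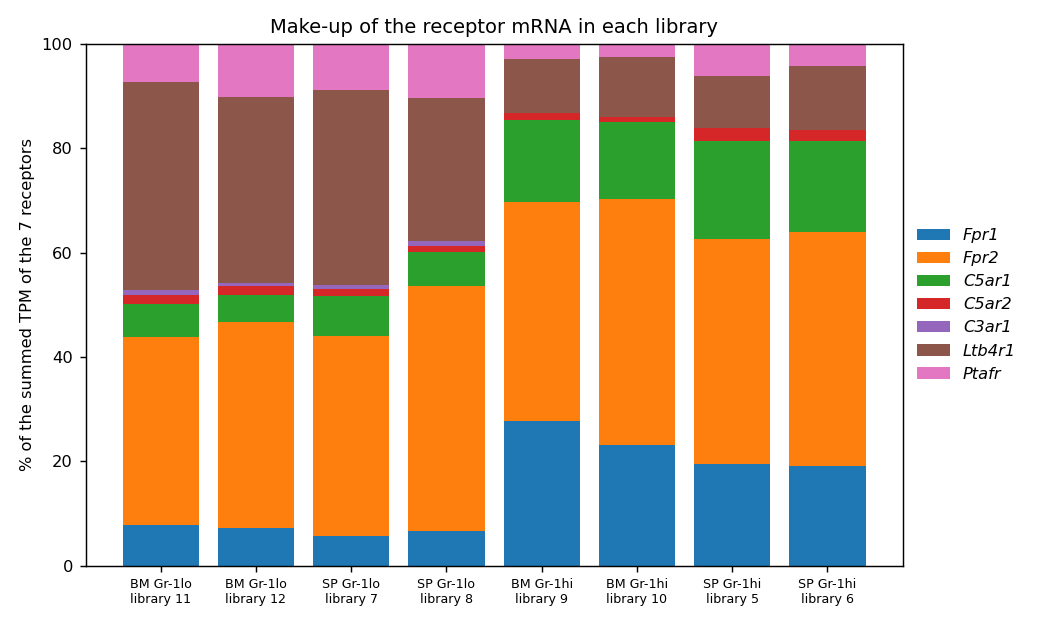
Share of the summed TPM of the 7 receptor genes (y axis, percent) in each library (x axis), as stacked bars that start at 0, with 1 colour per gene. Fpr2 held 36.2 to 47.1% throughout, and Ltb4r1 held 27.3 to 39.9% in the Gr-1lo but 9.92 to 12.2% in the Gr-1hi libraries.

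Gr-1hi and Gr-1lo cells were compared within each tissue to see how the subsets differ in marrow and in spleen. Of the 7 receptors, 6 were higher in Gr-1hi cells of both tissues, and C3ar1 was higher in Gr-1lo cells. Fpr1 and C5ar1 differed most, 55.1-fold and 42.3-fold in BM and 22.7-fold and 18.7-fold in SP. The folds depend on the scale, and the gaps were narrower in TPM. Fpr1 averaged 806 TPM in BM Gr-1hi and 26.9 in BM Gr-1lo, and 505 in SP Gr-1hi and 32.7 in SP Gr-1lo. C5ar1 averaged 480 and 20.9 TPM in BM and 472 and 37.1 TPM in SP, in the same order. Over the alternative fits the log2 FC in BM ran from 5.26 to 5.98 for Fpr1 and from 5.00 to 5.61 for C5ar1.

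Among the formyl peptide receptors, Fpr1 was at 688 and 583 CPM in BM Gr-1hi and at 12.6 and 10.5 CPM in BM Gr-1lo. In SP it was at 318 and 349 CPM in Gr-1hi and at 13.1 and 16.2 CPM in Gr-1lo. The lowest Gr-1hi library was thus far above the highest Gr-1lo library, and Fpr1 differed by 5.78 ± 0.17 (log2 FC, SE) in BM and 4.50 ± 0.16 in SP (edgeR quasi-likelihood test, Benjamini-Hochberg adjusted p = 8.57e-08 and 3.20e-07). Fpr2 was at 1026 and 1161 CPM in BM Gr-1hi, 57.5 and 56.0 CPM in BM Gr-1lo, 685 and 801 CPM in SP Gr-1hi and 85.1 and 111 CPM in SP Gr-1lo. Its subsets did not overlap in either tissue, and its log2 FC was 4.27 ± 0.16 in BM and 2.92 ± 0.15 in SP (edgeR adjusted p = 1.55e-07 and 1.13e-06).

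Of the C5a receptors, C5ar1 was at 755 and 718 CPM in BM Gr-1hi, 20.0 and 14.8 CPM in BM Gr-1lo, 591 and 616 CPM in SP Gr-1hi and 33.4 and 31.1 CPM in SP Gr-1lo. All Gr-1hi libraries were above all Gr-1lo libraries, and C5ar1 differed by 5.40 ± 0.16 (log2) in BM and 4.23 ± 0.15 in SP (edgeR adjusted p = 8.57e-08 and 3.15e-07). C5ar2 was at 96.3 and 75.8 CPM in BM Gr-1hi, 7.43 and 6.51 CPM in BM Gr-1lo, 112 and 106 CPM in SP Gr-1hi and 8.90 and 7.71 CPM in SP Gr-1lo. Its log2 FC was nearly the same in both tissues, 3.62 ± 0.15 in BM and 3.72 ± 0.15 in SP (edgeR adjusted p = 2.05e-07 and 4.57e-07).

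C3ar1 had the opposite pattern and a low level. It had 27 and 27 counts in BM Gr-1hi and 29 and 20 counts in SP Gr-1hi, or 0.638 to 1.11 CPM. In Gr-1lo cells it was at 4.55 and 2.68 CPM in BM and at 5.19 and 7.35 CPM in SP, so that each Gr-1lo library was above each Gr-1hi library. The log2 FC of Gr-1hi against Gr-1lo was -1.76 ± 0.34 in BM and -3.05 ± 0.35 in SP (edgeR adjusted p = 0.00145 and 6.22e-05). Monocyte markers moved the same way, as given above. Whether Gr-1lo-type cells within the Gr-1hi gate gave the few C3ar1 counts there was not tested, and in such bulk samples fewer cells of a type and less RNA per cell cannot be told apart.

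The lipid receptors differed less between the subsets than the formyl peptide and C5a receptors did. Ltb4r1 was at 271 and 303 CPM in BM Gr-1hi, 68.2 and 54.6 CPM in BM Gr-1lo, 170 and 235 CPM in SP Gr-1hi and 89.2 and 69.6 CPM in SP Gr-1lo. Its log2 FC was 2.23 ± 0.19 in BM and 1.35 ± 0.19 in SP (edgeR adjusted p = 9.99e-06 and 0.000242). Ptafr was at 193 and 171 CPM in BM Gr-1hi, 32.6 and 40.4 CPM in BM Gr-1lo, 274 and 215 CPM in SP Gr-1hi and 55.2 and 69.3 CPM in SP Gr-1lo. The log2 FC of Ptafr was 2.32 ± 0.17 in BM and 1.97 ± 0.17 in SP (edgeR adjusted p = 3.84e-06 and 1.38e-05), and neither gene's subsets overlapped.

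All genes together had a median of -0.17 (log2 FC) in BM and -0.09 in SP. The libraries of the subsets did not overlap for any of the 7 genes in either tissue. For 6 of them Gr-1hi was higher, as for 40.6% of all genes tested in BM and 40.6% in SP, and for C3ar1 it was lower, as for 48.2% and 45.6%. A difference is said below to meet the 2-fold criterion where the FC was 2 or more and the adjusted p no higher than 0.05. All 7 genes met it in each tissue, 6 of them higher in Gr-1hi cells, while 24.2% of all genes were higher by it in BM and 22.3% in SP. C3ar1 was lower by it, as were 33.1% of all genes in BM and 27.4% in SP. The study defined DEGs between subsets more strictly, by an FC above 8 with an adjusted p below 0.01. By that 8-fold criterion 4 of the 7 were called higher in BM (Fpr1, Fpr2, C5ar1 and C5ar2), against 6.56% of all genes. In SP 3 were called higher (Fpr1, C5ar1 and C5ar2), against 4.44% of all genes, and C3ar1 was called lower, against 2.93%. Fpr2 and C3ar1 lay at the edge of the 8-fold criterion in SP, 7.58-fold and 8.28-fold. Fpr2 was called there with RLE factors (log2 FC 3.05), upper-quartile factors and DESeq2 (3.02) and without library 5 (3.01) or 8 (3.11). C3ar1 was not called there with those scalings (-2.92, -2.97 and -2.95) or with limma on quantile-normalized TPM (-1.58). The limma fit adds 1 to each TPM, which shrinks the log2 FC of genes at so low a level. Before that addition and the quantile step, C3ar1 averaged 4.29 TPM in SP Gr-1lo and 0.355 TPM in SP Gr-1hi. Its log2 FC was -2.87 without library 6 and -2.79 without library 8. Without libraries 5 and 7 the calls were those of the full set in both tissues.

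**Figure D2:**
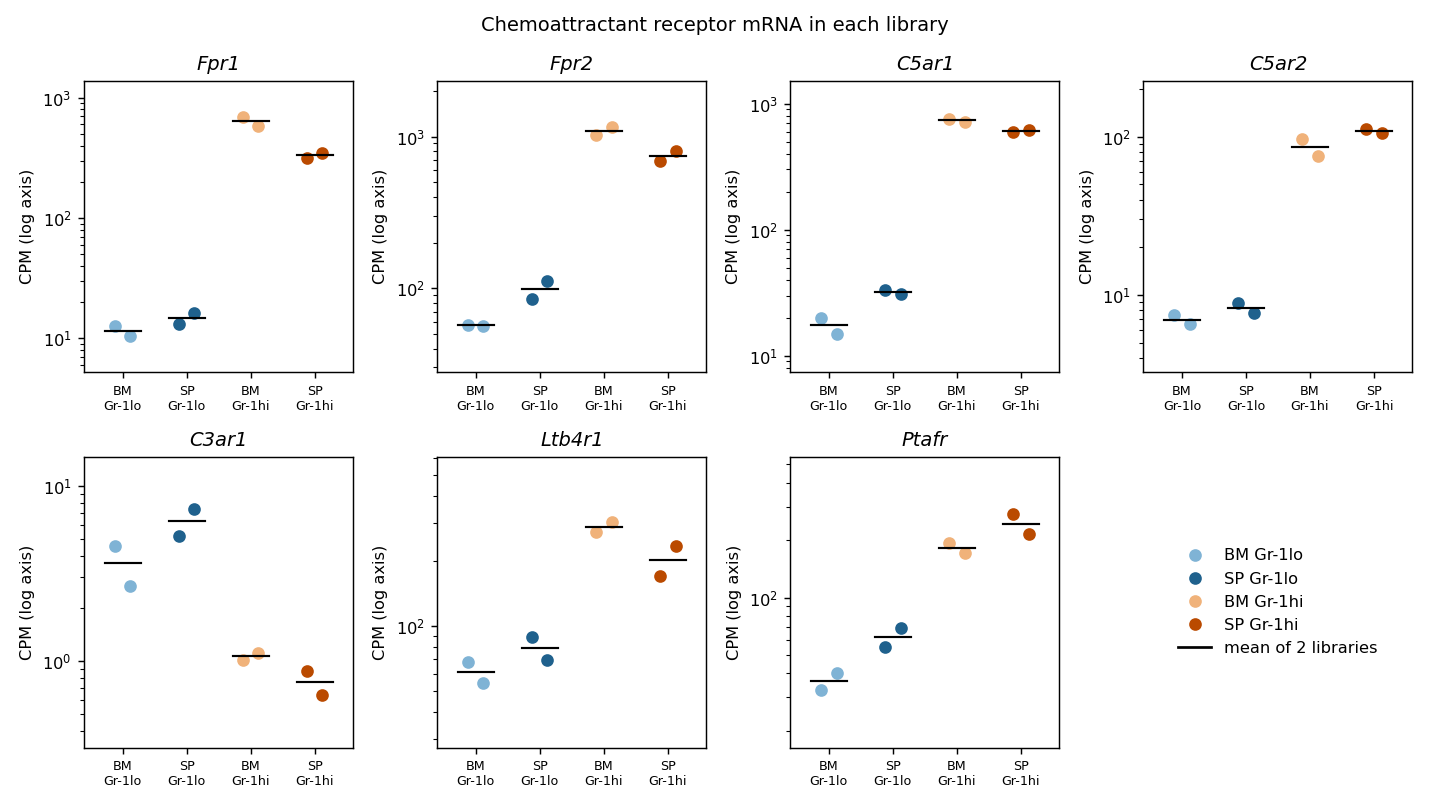
CPM of each gene (y axis, log scale) in the 4 groups (x axis), with 1 point per library and a bar at the mean of the 2 libraries. The 4 Gr-1hi libraries lie above the 4 Gr-1lo libraries for every gene but C3ar1, which had 0.638 to 1.11 CPM in Gr-1hi and 2.68 to 7.35 CPM in Gr-1lo libraries.

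**Figure D3:**
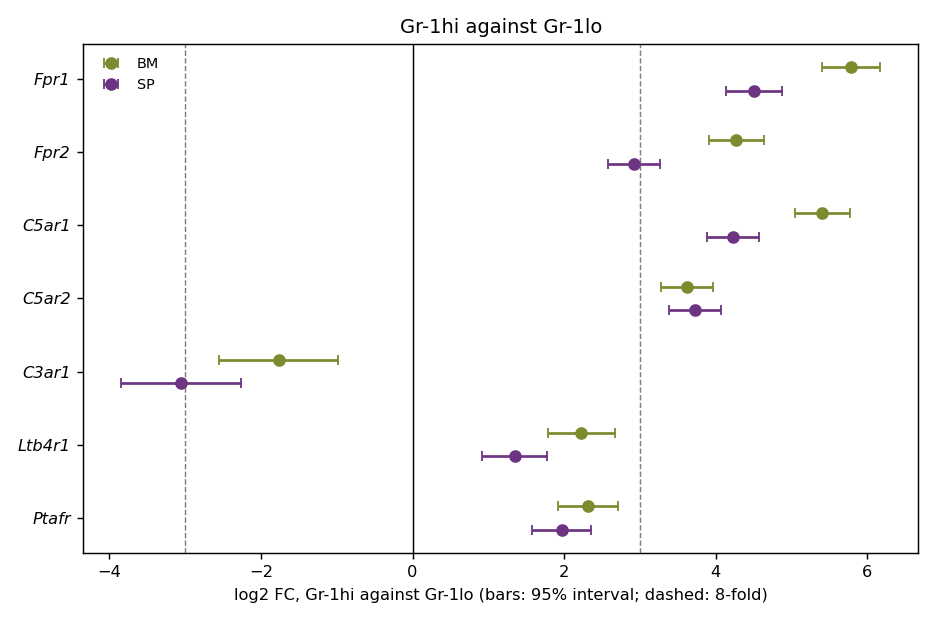
Log2 FC of Gr-1hi against Gr-1lo (x axis) for each gene in BM and in SP, as points with 95% intervals of the fit, and dashed lines at 8-fold. Fpr1, Fpr2 and C5ar1 are displaced to lower values in SP (4.50, 2.92 and 4.23 against 5.78, 4.27 and 5.40), while C5ar2 is at 3.72 and 3.62.

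Marker genes moved with these differences. Summed over 10 mature neutrophil markers, led by S100a9, S100a8 and Mmp9, the libraries held 110272 to 116161 CPM in BM Gr-1hi and 69897 to 81761 CPM in SP Gr-1hi. The sum was 6585 to 7683 CPM in SP Gr-1lo and 4290 to 4517 CPM in BM Gr-1lo, which is the order of the groups for Fpr1, Fpr2, C5ar1 and Ltb4r1 too. All 10 of these markers were higher in Gr-1hi cells of both tissues, and 9 of 10 monocyte and 8 of 8 granulocyte precursor markers lower, by the 2-fold criterion. By the same criterion, 7 of 10 B cell, 7 of 8 eosinophil and basophil and 7 of 10 T and NK cell markers were higher in Gr-1hi cells of BM, and 10, 6 and 7 in SP. Of 10 B cell markers 1 was lower in BM. Of 10 splenic macrophage markers, 6 were higher and 2 lower in BM, and 5 higher and 1 lower in SP. Of 8 dendritic cell markers, 4 were higher and 1 lower in BM, and 4 higher in SP. Of 6 plasma cell markers tested, 3 were lower in BM and 2 higher in SP, and of 6 erythroid markers 4 were higher in BM and 0 passed in SP. The part of cell composition in the receptor values was not tested.

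SP and BM cells were next compared within each subset, the comparison the study used to ask how myeloid cells of the spleen differ from those of the marrow. In Gr-1lo cells, C5ar1, Fpr2 and Ptafr rose in SP, 1.85-fold, 1.73-fold and 1.71-fold. In Gr-1hi cells, Fpr1 and Fpr2 fell in SP, 1.91-fold and 1.47-fold. The FC of each of the 7 stayed under 2 in both subsets, the size the study required of DEGs between tissues.

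By CPM, both SP Gr-1lo libraries were above both BM Gr-1lo libraries for each of the 7 genes, as for 27.1% of all genes tested. On the TPM scale Ltb4r1 overlapped, with 193 and 144 TPM in SP and 152 and 120 TPM in BM. C5ar2 overlapped there too, with 7.53 and 6.26 TPM in SP and 6.49 and 5.58 TPM in BM. Where the adjusted p alone was required to be no higher than 0.05 (the p criterion), 3 of the 7 were higher, against 4.88% of all genes. They were C5ar1 (log2 FC 0.89 ± 0.13, edgeR adjusted p = 0.00646), Fpr2 (0.79 ± 0.14, adjusted p = 0.0138) and Ptafr (0.77 ± 0.17, adjusted p = 0.0327). C3ar1 had a similar estimate with a wide error (0.80 ± 0.29, edgeR adjusted p = 0.172). Fpr1 (0.35 ± 0.14, edgeR adjusted p = 0.220), Ltb4r1 (0.37 ± 0.19, adjusted p = 0.312) and C5ar2 (0.25 ± 0.14, adjusted p = 0.372) did not pass. By the 2-fold criterion edgeR called 0 of the 7, against 4.06% of all genes, and DESeq2 also called 0. An unadjusted edgeR p of at most 0.05 was found for 5 of the 7, and for 3545 of all 17650 genes tested. C5ar1 met the 2-fold criterion without library 11 (log2 FC 1.12). The count by the p criterion fell to 1, C5ar1, without library 8, 11 or 12, where Fpr2 and Ptafr had adjusted p of 0.0806 to 0.106 and 0.0640 to 0.224. Ptafr missed the p criterion with RLE factors (edgeR adjusted p = 0.0518) and with limma on quantile-normalized TPM (adjusted p = 0.0643). Without libraries 5 and 7 the same 3 genes passed, with log2 FC of 0.83 for C5ar1, 0.96 for Fpr2 and 0.91 for Ptafr.

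Markers of other cells also differed between these groups. The neutrophil marker sum given above was higher in SP Gr-1lo, with 3 of 10 markers up by the p criterion. The sum over 8 granulocyte precursor markers, led by Mpo, Mki67 and Top2a, was 4995 to 5106 CPM in BM Gr-1lo and 2663 to 3626 CPM in SP Gr-1lo. Of 10 B cell markers 9 rose in SP, from a sum of 11.7 to 12.4 CPM to one of 71.8 to 90.5 CPM. Of 10 splenic macrophage markers 6 rose, from 226 to 272 CPM to 309 to 346 CPM. By edgeR 0 of 10 monocyte markers passed the p criterion (3 at an unadjusted p of at most 0.05), with sums of 9497 to 10336 CPM in BM and 7043 to 7076 CPM in SP. By the 2-fold criterion, 8 of 10 T and NK cell, 5 of 6 plasma cell, 6 of 6 erythroid and 3 of 8 dendritic cell markers tested rose in SP as well, and 1 of 8 granulocyte precursor and 1 of 8 eosinophil and basophil markers fell. The part of all these markers in the receptor differences was not tested.

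In Gr-1hi cells the receptors went in both directions. By CPM, both SP libraries were below both BM libraries for Fpr1, Fpr2, C5ar1, C3ar1 and Ltb4r1, as for 31.9% of all genes. Both were above them for C5ar2 and Ptafr, as for 35.9%. Fpr1 (log2 FC -0.93 ± 0.14, edgeR adjusted p = 0.00194) and Fpr2 (-0.56 ± 0.14, adjusted p = 0.0164) were lower by the p criterion, 2 of the 7, against 13.9% of all genes. C5ar1 was at -0.29 ± 0.13 (edgeR adjusted p = 0.121), and on the TPM scale its libraries overlapped, with 481 and 462 TPM in SP and 504 and 456 TPM in BM. Ltb4r1 was at -0.51 ± 0.18 (edgeR adjusted p = 0.0653) and C3ar1 at -0.48 ± 0.40 (adjusted p = 0.379). The C3ar1 libraries also overlapped on the TPM scale, with 0.424 and 0.286 TPM in SP and 0.402 and 0.422 TPM in BM. The estimates for C5ar2 (0.35 ± 0.13, edgeR adjusted p = 0.0759) and Ptafr (0.42 ± 0.16, adjusted p = 0.0787) were positive and did not pass. By the 2-fold criterion edgeR called 0 of the 7, against 15.5% of all genes, and DESeq2 called 1. An unadjusted edgeR p of at most 0.05 was found for 5 of the 7, and for 8015 of all 17650 genes tested. Fpr1 lay just under an FC of 2, and it was called by DESeq2 and with RLE factors (-1.01). It was not called with upper-quartile factors (-0.86) or with limma on quantile-normalized TPM (-0.74). Its log2 FC was -1.08 without library 6, -1.15 without library 10 and -0.88 without library 9. Ltb4r1 met the p criterion with RLE factors (adjusted p = 0.0328) and by DESeq2 (adjusted p = 0.0135), and C5ar2 met it without library 9 (0.46, adjusted p = 0.0477). Without library 6, which leaves 1 SP Gr-1hi library, the log2 FC was -0.75 for Fpr2, -0.84 for Ltb4r1 and 0.51 for Ptafr. Without libraries 5 and 7, Fpr1 (-0.85) and Fpr2 (-0.43) still passed, at adjusted p of 0.00921 and 0.0458.

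The neutrophil marker sum was lower in SP Gr-1hi than in BM Gr-1hi, with 4 of 10 markers down and 1 up by the p criterion. All 10 B cell markers rose, from a sum of 27.2 to 29.9 CPM in BM to 385 to 559 CPM in SP, and 9 of 10 splenic macrophage markers rose, from 611 to 682 CPM to 953 to 1136 CPM. By the 2-fold criterion, 8 of 10 T and NK cell, 6 of 6 plasma cell and 5 of 6 erythroid markers tested rose as well. Of 8 dendritic cell markers 4 rose and 1 fell, of 8 eosinophil and basophil markers 2 rose and 2 fell, and of 8 granulocyte precursor markers 3 fell and 0 rose. Of 10 monocyte markers 4 rose by the 2-fold criterion and 1 was lower by the p criterion, while their sum was lower in SP, at 1083 to 1199 CPM against 1329 to 1765 CPM in BM. Whether these cells contributed to the receptor values was not tested.

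**Figure D4:**
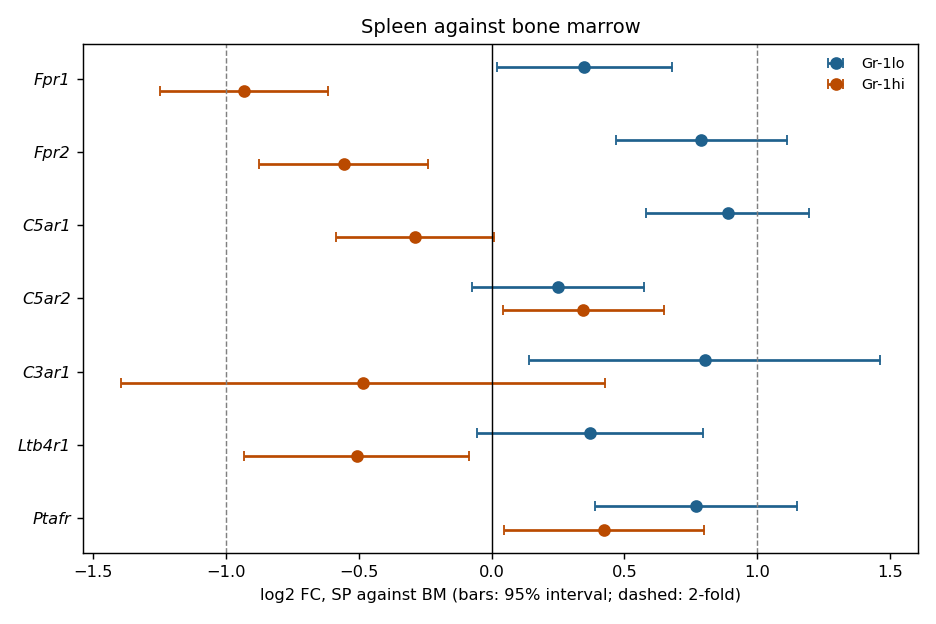
Log2 FC of SP against BM (x axis) for each gene in Gr-1lo and in Gr-1hi cells, as points with 95% intervals of the fit, and dashed lines at 2-fold. All 7 estimates are above 0 in Gr-1lo cells (0.25 to 0.89), and 5 of 7 are below 0 in Gr-1hi cells (-0.93 for Fpr1 to -0.29 for C5ar1).

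The interaction of tissue and subset tested whether the SP difference itself differed between the subsets, which is the same as whether the gap between Gr-1hi and Gr-1lo cells was narrower or wider in SP. The subset and tissue comparisons use the same 8 libraries, so they are not separate evidence. The gap narrowed for the formyl peptide receptors and for C5ar1. The interaction was -1.35 ± 0.20 for Fpr2 (log2, edgeR adjusted p = 0.00510), -1.28 ± 0.20 for Fpr1 (adjusted p = 0.00619) and -1.18 ± 0.19 for C5ar1 (adjusted p = 0.00659). These 3 of the 7 met the 2-fold criterion, as did 9.74% of all genes in either direction and 2.00% in the same direction. C5ar1 stayed under the FC of 2 without library 12 (-0.98). Without libraries 5 and 7 the same 3 passed, with -1.39 for Fpr2, -1.33 for Fpr1 and -1.07 for C5ar1.

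Ltb4r1 was at -0.88 ± 0.26 (edgeR adjusted p = 0.0551) and met the 2-fold criterion without library 6 (-1.22). C3ar1 was at -1.29 ± 0.49 (edgeR adjusted p = 0.111), with the low counts given above, and met the 2-fold criterion with no filter on low counts (-1.32). For C5ar2 the interaction was 0.10 ± 0.19 (edgeR adjusted p = 0.774), with a 95% interval from -0.35 to 0.54, and for Ptafr -0.35 ± 0.23 (adjusted p = 0.343), from -0.88 to 0.18. These intervals exclude a narrowing of C5ar2 or Ptafr by a full log2 unit but not smaller differences. The neutrophil markers had a median interaction of -0.85, against 0.03 for all genes, with 3 of 10 lower by the 2-fold criterion. The median was -1.12 for erythroid, -0.76 for eosinophil and basophil, -0.39 for granulocyte precursor and -0.23 for splenic macrophage markers. For T and NK cell markers it was -0.02, for dendritic cell 0.04, for B cell 0.28, for monocyte 0.55 and for plasma cell markers 1.39. The part of any of these markers in the receptor interactions was not tested.

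Ratios of genes within a library do not depend on how libraries were scaled, and are given as a description, first for the neighbouring pairs. The Fpr2 to Fpr1 ratio of counts was 1.49 and 1.99 in BM Gr-1hi, 2.15 and 2.30 in SP Gr-1hi, 4.56 and 5.34 in BM Gr-1lo and 6.49 and 6.83 in SP Gr-1lo. It was thus higher in Gr-1lo than in Gr-1hi cells and, within each subset, higher in SP than in BM. The C5ar1 to C5ar2 ratio of counts was 2.69 and 2.28 in BM Gr-1lo, 3.76 and 4.03 in SP Gr-1lo, 5.26 and 5.80 in SP Gr-1hi and 7.84 and 9.48 in BM Gr-1hi. This ratio of the signalling to the other C5a receptor, of counts and not per length, was highest in BM Gr-1hi and lowest in BM Gr-1lo, and the SP groups lay between them. The C5ar1 to C3ar1 ratio was 645 to 965 in Gr-1hi libraries and 4.22 to 6.44 in Gr-1lo libraries.

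**Figure D5:**
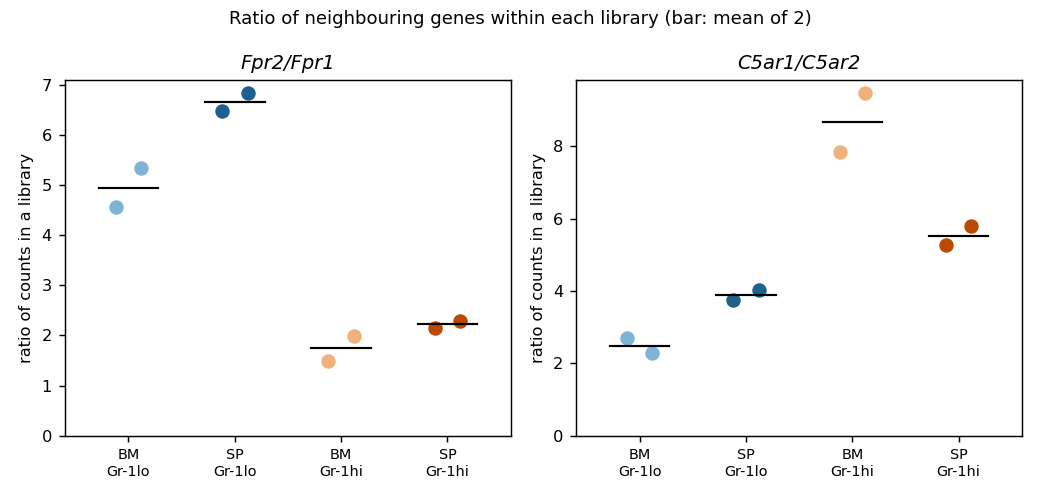
Ratio of counts of Fpr2 to Fpr1 (left) and of C5ar1 to C5ar2 (right) on linear y axes from 0, by group, with 1 point per library and a bar at the mean of the 2 libraries. The Fpr2 to Fpr1 ratio ran from 1.49 in BM Gr-1hi to 6.83 in SP Gr-1lo, and the C5ar1 to C5ar2 ratio from 2.28 in BM Gr-1lo to 9.48 in BM Gr-1hi.

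The order of the groups by mean CPM was BM Gr-1hi, SP Gr-1hi, SP Gr-1lo and BM Gr-1lo for Fpr1, Fpr2, C5ar1 and Ltb4r1. For C5ar2 and Ptafr SP Gr-1hi came first, before BM Gr-1hi, SP Gr-1lo and BM Gr-1lo. For C3ar1 the order was SP Gr-1lo, BM Gr-1lo, BM Gr-1hi and SP Gr-1hi. Of the SP against BM steps only those named above passed the test. On the TPM scale SP and BM overlapped for C5ar1 and C3ar1 in Gr-1hi cells and for Ltb4r1 and C5ar2 in Gr-1lo cells.

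The 2-fold criterion is used for all the lists that follow. By it, 678 of all 17650 genes tested rose and 38 fell in SP against BM Gr-1lo cells. In Gr-1hi cells 2465 rose and 262 fell. Between subsets, 24.2% of all genes were higher and 33.1% lower in Gr-1hi cells of BM, and 22.3% and 27.4% in SP. The other chemoattractant receptors, 20 genes of which 13 were tested, were mixed. In Gr-1lo cells 4 rose in SP and 0 fell. They were Cmklr1, the chemerin receptor (log2 FC 2.61 ± 0.29), Fpr3 (1.06 ± 0.16), Gpr84, a receptor for medium-chain fatty acids (1.21), and P2ry14, a receptor for UDP-sugars (1.52), the last pair named after their values were seen. In Gr-1hi cells 6 rose in SP and 0 fell, with Gpr35 (2.17 ± 0.20) and Ccrl2, which binds chemerin without signalling (2.14 ± 0.52), as examples, although the Ccrl2 level differed between the SP libraries, from 40.6 to 109 CPM. Between subsets, 6 were higher and 5 lower in Gr-1hi cells of BM, and 5 higher and 4 lower in SP. The lower ones were Cysltr1, Cmklr1, P2ry6 and Gpr35 in both tissues and, in BM, Gpr183, and those higher in SP were Hcar2, Fpr3, Ccrl2, Ffar2 and Gpr84. Gpr183 and Ffar2 were named after their values were seen. Hcar2, the receptor for niacin and ketone bodies, was higher in Gr-1hi (4.84 ± 0.20 in BM, 5.30 ± 0.20 in SP), and Cysltr1, a receptor for cysteinyl leukotrienes, was lower (-5.06 ± 0.21 and -4.51 ± 0.20). Fpr3, which shares sequence with Fpr2, followed it, with 4.39 ± 0.18 in BM, 2.84 ± 0.16 in SP and an interaction of -1.55 ± 0.22 (log2).

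Of 16 genes for the ligands and their synthesis, 13 were tested. Higher in Gr-1hi cells were 8 in BM and 7 in SP, and 2 were lower in each tissue. Alox5, the 5-lipoxygenase that begins leukotriene synthesis, was at 868 to 899 CPM in BM Gr-1hi, 459 to 564 CPM in SP Gr-1hi, 35.7 to 42.7 CPM in SP Gr-1lo and 21.8 to 23.1 CPM in BM Gr-1lo. Its log2 FC between subsets was 5.30 ± 0.15 in BM and 3.71 ± 0.14 in SP. Lpcat2, which makes PAF, had 4.05 ± 0.12 and 3.03 ± 0.11, and Anxa1, which encodes the FPR2 ligand annexin A1, had 3.81 ± 0.19 and 2.47 ± 0.18. Saa3, a serum amyloid A gene (-7.91 ± 1.89 in BM, -5.64 ± 1.34 in SP), and Cfb, complement factor B (-5.25 ± 0.76 and -3.74 ± 0.63), were lower in Gr-1hi cells, and the BM Gr-1lo libraries differed widely for Saa3, at 7.04 and 79.5 CPM. Between SP and BM, 0 of the 13 passed in Gr-1lo cells by edgeR (6 at an unadjusted p of at most 0.05) and 1 rose in Gr-1hi cells, Cfb (3.16 ± 0.75). By the p criterion, 6 of the 13 were lower in SP Gr-1hi cells, against 13.9% of all genes, and the median over the list was -0.48 (log2 FC). By the interaction 4 were lower, against 2.00% of all genes, and 0 higher. The 4 were Camp (-1.83), Alox5 (-1.59), Anxa1 (-1.34) and Lpcat2 (-1.02), all named after their values were seen.

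Of 9 genes for ligand breakdown, 8 were tested. Higher in Gr-1hi were 4 in BM and 4 in SP, among them Cpd, a carboxypeptidase (3.81 ± 0.16 and 3.46 ± 0.16), Cyp4f18, which inactivates leukotriene B4 (2.17 ± 0.13 and 1.68 ± 0.13), and Pla2g7, the plasma PAF acetylhydrolase (2.07 ± 0.12 and 1.73 ± 0.12). Ptgr1, which also inactivates leukotriene B4, was lower (-2.20 ± 0.28 and -2.26 ± 0.28). The fourth higher gene was Cpm, another carboxypeptidase (3.19 and 2.14), and Pafah1b3 (-2.57) was also lower in BM. In SP against BM, Pla2g7 (1.30 ± 0.12) and Cpm (3.35) rose in Gr-1lo cells, and Pafah1b3 (1.86) and Cpm (2.31) rose in Gr-1hi cells. Cpm and Pafah1b3 were named after their values were seen.

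All 19 genes for G proteins and effectors were tested, and 11 in BM and 8 in SP were higher in Gr-1hi cells, with 0 lower. Rac2, a GTPase of the neutrophil oxidase and of movement, had a log2 FC of 2.44 ± 0.09 and 1.97 ± 0.09. In SP against BM, edgeR called 0 of the 19 in either subset, with 3 at an unadjusted p of at most 0.05 in Gr-1lo and 13 in Gr-1hi cells. In Gr-1hi cells, 12 of 19 were lower by the p criterion, against 13.9% of all genes. The median was -0.37, against 0.03 for all genes.

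All 11 genes for desensitization were tested. Higher in Gr-1hi were 8 in BM and 5 in SP, in SP Arrb2, Rgs18, Rgs14, Grk2 and Rgs19, with Arrb2, which encodes beta-arrestin 2, at 3.47 ± 0.18 and 2.37 ± 0.17. The receptor kinase gene Grk3 was lower in Gr-1hi (-2.27 ± 0.16 and -1.68 ± 0.15). In Gr-1hi cells of SP against BM, Grk3 rose (1.55 ± 0.16) and Rgs18, a regulator of G protein signalling (-1.07 ± 0.20), and Arrb1, beta-arrestin 1 (SE 0.13), fell, the latter just past 2-fold. In Gr-1lo cells 1 gene rose in SP, Rgs1 (2.63). Grk2, Rgs19 and Rgs1 were named after their values were seen.

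Over the 8 libraries, the 6 receptors other than C3ar1 had a Pearson r of 0.891 to 0.994 with each other in log2 CPM, and C3ar1 had an r of -0.933 to -0.843 with them. The genes most like each member in log2 CPM, among 8591 genes of at least 10 mean CPM, were Tprgl for Fpr1, Abi1 for Fpr2, Gm36551 for C5ar1, Gpbp1l1 for C5ar2, Tes for Ltb4r1 and Ptk2b for Ptafr, each with a Pearson r of 0.997 or more over 8 libraries. For C3ar1 the nearest were a gene with the symbol Mpv17 (ENSMUSG00000107283) and Siglec1, a macrophage sialoadhesin (r = 0.989 for both). The points share the split between Gr-1hi and Gr-1lo cells, and no p is given.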

How the data were processed

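RNA was sequenced from 8 libraries, 2 for each of 4 sorted populations, on a NovaSeq instrument after TruSeq Stranded mRNA preparation. The authors aligned the reads with STAR to GRCm38 and deposited the featureCounts count per gene, whole numbers without normalization, with GENCODE gene identifiers. The methods name 2 biological replicates per condition, but no label ties a library to a mouse, so p-values measure the spread between these libraries.

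Counts were filtered with filterByExpr (minimum count 10), scaled by TMM and fitted with edgeR 4.0.16 (robust quasi-likelihood, 1 term per group, all 8 libraries, 4 residual degrees of freedom) in R 4.3.3. The Benjamini-Hochberg adjustment ran over the 17650 genes left. The main fit used counts because the deposited table holds counts. The study's own values, quantile-normalized TPM, were rebuilt as an alternative with limma 3.58.1 on log2(TPM + 1), with exon lengths from GENCODE M21 (same build, 53947 of 54188 genes). DESeq2 1.42.0, RLE and upper-quartile factors, no filter, the 4 libraries compared alone, and leaving out each library, or 5 and 7, were the other alternatives. The script was tested on simulated data. Replicates differed by more than sampling noise (chi-square per degree of freedom 18.9 to 66.7).

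Named were all 7 members and, of each pathway list and comparison, up to 3 genes with the largest increase and decrease among those whose higher group averaged 10 CPM or more. Also named were the genes of the label checks, up to 3 highest genes of a marker list, and the 2 genes most like each member, of which the first is printed except for C3ar1. The members and lists were chosen with earlier results of these data known.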

Additional observations from a re-analysis of the deposited data

Results flagged for a closer look

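The SP difference of 3 receptors differed between the subsets by the edgeR test of the interaction, which compares the log2 FC of Gr-1hi against Gr-1lo in SP with that in BM. The values were -1.28 for Fpr1, -1.35 for Fpr2 and -1.18 for C5ar1 (log2). For Fpr2 the estimates lay on opposite sides of 0, 0.79 in Gr-1lo and -0.56 in Gr-1hi cells, each with an adjusted p of at most 0.05. For Fpr1 only the fall in Gr-1hi cells passed (-0.93), and for C5ar1 only the rise in Gr-1lo cells (0.89). Groups of 2 libraries are too small for a check for outlying samples.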

How the results depend on the processing

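Over the alternatives, 495 values of single genes kept their direction and their side of the threshold, 12 newly passed, 7 no longer passed and 4 turned direction. The 4 belong to the interaction of C5ar2, which ran from -0.18 to 0.20 when each library was left out and never passed. The count of genes called in SP against BM was 0 to 1 in Gr-1lo cells, where the gene was C5ar1, and 0 to 1 in Gr-1hi cells over the fits that left out 1 library. It was 1 in Gr-1hi cells with RLE factors and 1 with DESeq2, and the gene called in Gr-1hi cells was Fpr1 each time. The count at an adjusted p of at most 0.05 ran from 1 to 3 in Gr-1lo and from 2 to 4 in Gr-1hi cells without 1 library, and came to 6 and 5 with no filter on low counts, a fit whose adjusted p are far smaller; the cause was not tested. The adjusted p of the interactions ranged over all alternatives up to 0.0407 for Fpr1, 0.0257 for Fpr2 and 0.0473 for C5ar1. No paired analysis was possible because the groups share no replicate numbers and no label ties libraries to a mouse. With 2 libraries per group, an exact permutation test cannot reach 0.05, so all tests rest on a spread shared across groups and genes. C3ar1, with 20 to 29 counts per Gr-1hi library, is limited by counting.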
